A study of Mus musculus with 1 sample.

Results

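The alveolar macrophages (AMs) with the lowest immediate-early response were 200 of 2055 cells in a single library. AMs are the resident macrophages of the air spaces. The 200 cells were chosen by the values themselves, as the cells with the lowest mean ln value of Fos, Jun, Junb, Ier2, Dusp1, Nr4a1, Egr1 and Atf3 among the 1809 cells with at least 1000 genes detected. They are called low-response cells here, which names a range of a score and not a cell type. The library came from 1 Hdac3 fl/fl mouse without Cre, labelled wild-type, aged 8 to 12 weeks and of FVB/NJ origin backcrossed to C57BL/6 over 10 generations, so the only group studied here carries the unrecombined floxed allele. Lungs of adult mice were minced and digested with warm collagenase before the sort, CD45+CD11c+SiglecF+ cells were collected, and 5000 of them were loaded for 3' single-cell RNA-seq with unique molecular identifiers (UMIs, which count captured RNA molecules). The matching Hdac3 cKO library was not analysed here. With 1 library there was no replicate and no test, and genes are described by the size of their ratio.

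Immediate-early genes are transcribed within minutes of a stimulus without new protein synthesis, because the kinases and promoter-bound factors that switch them on are already in the cell. Their products include transcription factors of the AP-1, Egr and Nr4a families and proteins that end the response, such as the phosphatase Dusp1 and the RNA decay factor Zfp36. In tissue macrophages these genes are known to respond to pathogens and injury and also to the handling that frees cells from tissue. Macrophage cytokine genes such as Cxcl2, Ccl3 and Tnf are induced soon after.

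Promoters of 4 genes with low levels in these cells are shown, because each holds a binding motif known from immediate-early or cytokine genes. Dusp1 was one of the genes of the score, and Btg2, Zfp36 and Cxcl2 were outside it. Each line is the strand of the gene, 250 bases up to the RefSeq start on GRCm38.p6, with the motif in capitals. The motif is the cAMP response element (TGACGTCA) in Dusp1 and Btg2, the CArG box bound by serum response factor in Zfp36, and a pair of overlapping kappaB matches on opposite strands in Cxcl2.
Dusp1: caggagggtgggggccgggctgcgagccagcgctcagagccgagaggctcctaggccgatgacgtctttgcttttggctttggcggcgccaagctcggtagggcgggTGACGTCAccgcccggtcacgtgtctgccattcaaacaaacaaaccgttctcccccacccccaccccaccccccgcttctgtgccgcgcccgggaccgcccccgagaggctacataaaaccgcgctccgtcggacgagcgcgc
Btg2: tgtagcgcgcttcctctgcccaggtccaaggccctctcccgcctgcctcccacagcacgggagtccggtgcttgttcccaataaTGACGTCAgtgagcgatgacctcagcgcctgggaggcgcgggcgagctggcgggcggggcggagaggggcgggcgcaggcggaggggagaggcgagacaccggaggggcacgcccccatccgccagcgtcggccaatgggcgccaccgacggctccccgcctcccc
Zfp36: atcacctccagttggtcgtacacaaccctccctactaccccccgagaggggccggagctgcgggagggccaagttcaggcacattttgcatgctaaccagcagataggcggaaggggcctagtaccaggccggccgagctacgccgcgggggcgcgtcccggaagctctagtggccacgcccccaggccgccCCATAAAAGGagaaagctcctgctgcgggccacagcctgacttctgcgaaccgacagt
Cxcl2: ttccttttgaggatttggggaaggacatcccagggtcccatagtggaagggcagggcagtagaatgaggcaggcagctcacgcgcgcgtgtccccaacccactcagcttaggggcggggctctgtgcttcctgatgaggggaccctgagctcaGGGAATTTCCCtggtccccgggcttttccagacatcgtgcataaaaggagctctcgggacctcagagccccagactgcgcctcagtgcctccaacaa
The windows lie at chr17:26508473-26508722 on the minus strand, chr1:134079156-134079405 on the minus strand, chr7:28379229-28379478 on the minus strand and chr5:90903649-90903898 on the plus strand. The cAMP response element occurred on either strand in 1.55% of 32851 such windows of all genes, the CArG box in 1.47% and the kappaB consensus in 7.25%. Among genes tested here with a window, 3.54% held the cAMP response element in at least 1 window, against 7 of the 79 genes with a window that were lower in the low-response cells (8.86%). For kappaB the shares were 10.2% of the tested genes and 17.7% of the lower ones, and for AP-1 (TGANTCA) 5.71% and 2.53%. For the CArG box they were 1.60% and 2.53%. The windows of Ccl3, Rhob, Nr4a3 and Chka, which were also lower, held none of these motifs. These are matches of letters and say nothing of binding in these cells.

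The score that chose the cells ran from 0 to 0.584 in the low-response cells, against a median of 1.12 and a maximum of 2.74 over the 1809 cells. The 3 cells just inside the limit scored 0.580, 0.583 and 0.584, and the 3 just outside scored 0.585, 0.585 and 0.589, with 3 of the 8 genes detected in all 6. Within 0.05 of the limit lay 31 cells inside and 44 outside. Of the 200 cells, 8 held no UMI of any of the 8 genes, 51 held 1 of the genes, 99 held 2, 41 held 3 and 1 held 4. The low-response cells had 1791 to 7549 UMIs (median 3112) and 1001 to 2327 genes detected. They were compared with 600 other kept cells, 3 for each, matched on the number of genes detected. The median number of genes was 1402 in both groups, and the matched cells had a median of 3020 UMIs. Of the matched cells, 590 held at least 3 of the 8 genes.

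**Figure D1:**
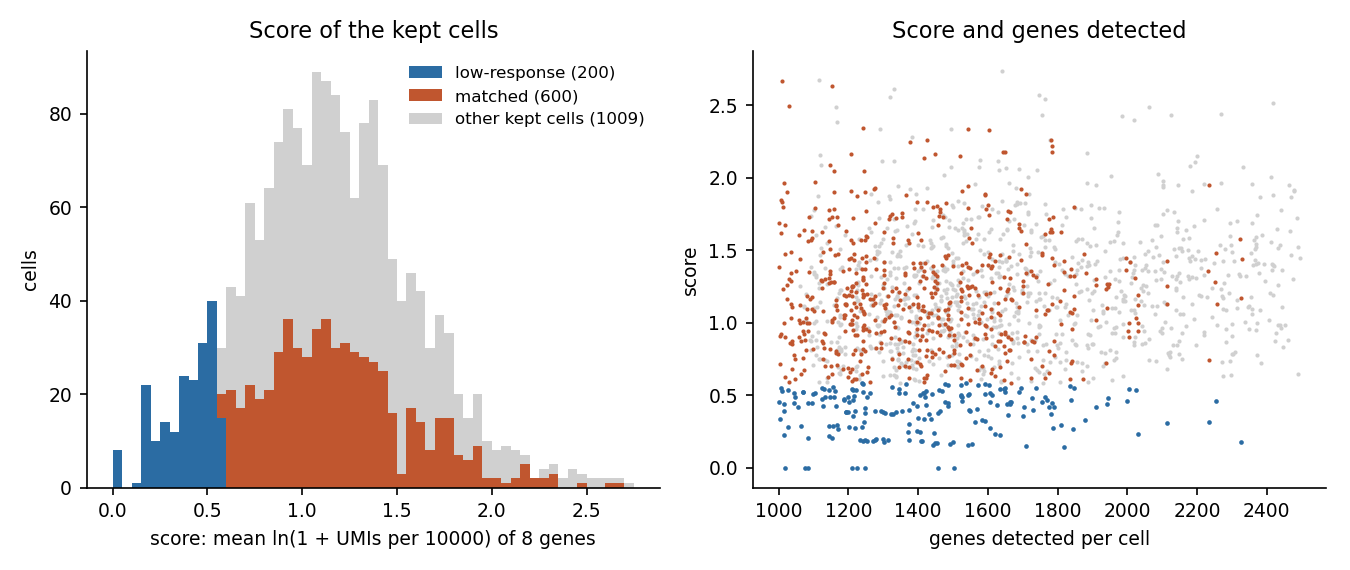
Left, number of kept cells against the score (mean ln of 1 plus UMIs per 10000 over the 8 genes), stacked by group. Right, score against genes detected for each kept cell, in the same colours. The 200 low-response cells (blue) take scores up to 0.584 with no gap to the next cells, and the 600 matched cells (orange) cover the same range of genes detected.

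The levels of the 8 genes show the depth of the choice and are given as a description. Levels are pooled UMIs per 10000 UMIs of the group, and intervals are exact 95% Poisson intervals, which cover counting error only and neither differences between cells nor between mice. Fos, which pairs with Jun proteins in AP-1, stood at 2.95 in the low-response cells and 8.84 in the matched cells, and it was the most abundant of the 8 in the low-response cells. Junb stood at 1.60 and 8.19, and Jun at 0.122 and 0.908. Dusp1, a phosphatase that inactivates MAP kinases, stood at 1.84 and 9.16. Nr4a1, an orphan nuclear receptor, stood at 1.28 and 5.73. Egr1, a zinc finger factor, was lowest relative to the matched cells, with 7 UMIs in the 200 cells and 503 in the 600. Ier2 stood at 0.411 and 1.74, and Atf3, a stress-induced factor of the ATF family, at 0.365 and 2.25.

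These levels rest on the same sparse counts that chose the cells. When each UMI was assigned at random, with a probability of 0.5, to a choosing set or a reading set, with cells chosen on the former and levels read in the latter, 133 of the 200 cells were chosen again. In the reading set, which the choice did not use, the 8 genes together stood at 17.0 per 10000 in the chosen cells and 39.5 in the matched cells, a ratio of 0.430 (95% interval 0.392 to 0.471). Each of the 8 genes was lower there, with ratios from 0.0914 for Egr1 to 0.697 for Ier2. With all UMIs, the ratio of the 8 genes together was 0.220.

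Outside the 8 genes, 2733 genes reached 0.5 UMIs per 10000 over both groups. Of these, 106 (3.88%) were lower in the low-response cells past 1.5-fold and 23 (0.842%) were higher, and the median log2 ratio over all 2733 was -0.02. The 600 matched cells weigh more than the 200 low-response cells in the pooled minimum level. A gene high only in matched cells therefore passes it more readily than one high only in low-response cells, which favours the lower count. With 1 matched cell each, 134 genes were lower and 75 higher. The lower genes were led by cytokine and immediate-early genes. Among genes with at least 1 UMI per 10000, the 12 with the lowest ratios were Ccl3, Cxcl2, Nr4a2, Kdm6b, Btg2, Rhob, Fosb, Egr2, Nr4a3, Chka, Phlda1 and Zfp36. The 7 that were higher past 1.5-fold were Jchain, Stmn1, Wfdc17, Txnip, Hmgb2, Tubb5 and Cd63.

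**Figure D2:**
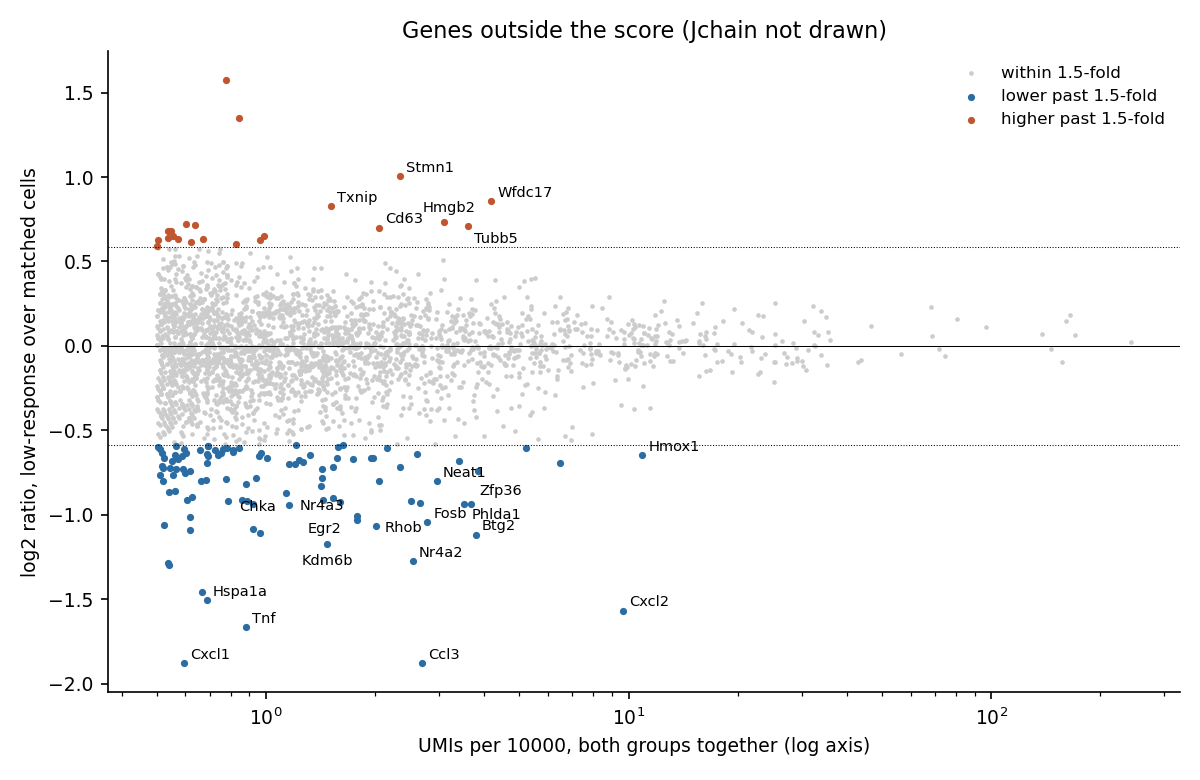
Each point is 1 of the genes tested outside the score, with its level over both groups on a log axis and the log2 ratio of low-response to matched cells, without Jchain, which lies off the scale. Dotted lines mark 1.5-fold in each direction. Cxcl2 and Ccl3 lie lowest among the genes above 1 UMI per 10000, and the 106 lower genes (blue) outnumber the 23 higher genes (orange, Jchain included in the count).

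Inducible cytokine and chemokine genes had the lowest ratio of summed levels, leaving out the 8 genes of the score and the lists that mark other cell types. Of 10 tested, 9 were lower past 1.5-fold and none was higher, against 3.88% lower over all genes tested, and the median log2 ratio of the 10 was -0.97. Here and below, the summed level of a list takes all its measured genes, also those too low to be tested. Over the 22 measured genes of this list it was 12.4 UMIs per 10000 in the low-response cells and 27.4 in the matched cells. The ratio was 0.453 (95% interval 0.420 to 0.488). Cxcl2, a chemokine that attracts neutrophils, stood at 3.91 in the low-response cells and 11.6 in the matched cells (2.96-fold lower, ratio 0.338, 95% interval 0.295 to 0.384). Ccl3, a chemokine for monocytes and T cells, stood at 0.898 and 3.3 (ratio 0.272, 0.205 to 0.356). Both genes are protein-coding, Cxcl2 at chr5:90903871-90905938 on the plus strand and Ccl3 at chr11:83647844-83649355 on the minus strand (GRCm38, GENCODE M21). Cxcl1, another neutrophil chemokine, had 13 UMIs in the low-response cells and 141 in the matched cells (ratio 0.272). Tnf, an inflammatory cytokine, stood at 0.335 and 1.06 (ratio 0.315), and Osm, a cytokine of the interleukin-6 family, at 1.51 and 2.85 (ratio 0.529). Il1a and Il1b, which encode the interleukin-1 ligands, had ratios of 0.495 and 0.628. Ccl4 and Areg, with ratios of 0.581 and 0.629, complete the 9. The tenth gene was Il1rn, which encodes the antagonist of the interleukin-1 receptor, at 1.67 and 1.71 (ratio 0.977, 0.780 to 1.22).

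Cytokine RNA was not spread evenly, and the groups overlapped. Per cell, the list ranged from 0 to 98.8 UMIs per 10000 in the low-response cells (median 8.31) and from 0 to 322 in the matched cells (median 14.9). No low-response cell lay above the highest matched cell, and 151 of 200 (75.5%) lay below the median of the matched cells. The 5% of cells with the most cytokine UMIs held 32.2% of the list's UMIs in the low-response cells (10 cells) and 33.3% in the matched cells (30 cells). For Ccl3 the corresponding shares were 55.9% and 46.2%. With every cell thinned to 1500 UMIs, Cxcl2 was detected in 34% of the 200 low-response cells (exact binomial 95% interval 27.5% to 41.0%) and 45% of the 600 matched cells (41.0% to 49.1%). Without thinning the shares were 51.5% and 65.5%. For Ccl3 the thinned shares were 9% and 25.7% (18% and 38.8% unthinned), and for Tnf 4.5% and 10.2% (10.5% and 19.3%). No cell type without these genes was present in numbers that would give the share due to free RNA in the droplets.

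Transcription factors of the immediate-early class outside the score were lower as well, but not evenly. Of 16 tested, 7 were lower past 1.5-fold and none was higher, against 3.88% and 0.842% of all genes tested, with a median log2 ratio of -0.42. Nr4a2, an orphan nuclear receptor related to Nr4a1, stood at 1.23 UMIs per 10000 in the low-response cells and 2.98 in the matched cells (ratio 0.413, 95% interval 0.323 to 0.522). Fosb, a partner of Jun proteins, stood at 1.55 and 3.19 (ratio 0.486), Egr2 at 1.00 and 2.05 (ratio 0.489), and Nr4a3 at 1.02 and 2.05 (ratio 0.498). Maff, a small Maf protein, and Klf4, a Krüppel-like factor, had ratios of 0.535 and 0.575, and Bhlhe40, a repressor of the basic helix-loop-helix family, had 0.598. The abundant members differed less. Cebpb, a factor of macrophage and acute-phase genes, stood at 28.6 and 31.6 (ratio 0.906, 0.859 to 0.954) and Fosl2, another Fos family member, at 4.19 and 6.12 (ratio 0.684, 0.598 to 0.780). Cebpb held 1881 of the 3848 UMIs of the list in the low-response cells, and the summed ratio was 0.790.

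The feedback and stress genes of the same class had 10 of 17 tested genes lower past 1.5-fold, against 3.88% of all genes tested, and none higher, with a median log2 ratio of -0.69. Their summed level was 40.6 in the low-response cells and 62.6 in the matched cells (ratio 0.649, 95% interval 0.622 to 0.676). Kdm6b, a histone H3K27 demethylase, stood at 0.761 and 1.71 (ratio 0.444). Btg2, an antiproliferative adaptor of RNA deadenylation, stood at 2.02 and 4.39 (ratio 0.461, 0.381 to 0.554). Zfp36, which binds AU-rich elements of cytokine RNAs and hastens their decay, stood at 2.19 and 4.19 (ratio 0.524, 0.436 to 0.626). Rhob, a small GTPase, stood at 1.11 and 2.32 (ratio 0.478). Gadd45b and Ier3 had ratios of 0.408 and 0.472 on 17 and 33 UMIs in the low-response cells. The other 4 lower genes were Rgs1, Trib1, Ier5 and Pim1, with ratios from 0.525 to 0.623. Mcl1, a survival protein of the Bcl2 family, and Btg1, which is related to Btg2, were the most abundant and had ratios of 0.680 and 0.784.

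Both immediate-early lists together ranged from 42.0 to 192 UMIs per 10000 among the low-response cells (median 97.3) and from 28.7 to 286 among the matched cells (median 134). Thus the groups overlapped, with 176 of 200 low-response cells (88.0%) below the median of the matched cells and 24 at or above it. The low-response cells were not without RNA of these lists. Even the 8 cells with no UMI of the 8 chosen genes held 91.9 UMIs per 10000 of them (190 UMIs, 95% interval 79.3 to 106). Abundant members such as Cebpb weigh most in this sum. At equal depth Cebpb was detected in 97% of low-response cells, against 16% for Nr4a2 and 13% for Egr2. The sum therefore does not give the level of the rarer members in those 8 cells. Among the low-response cells, the summed level was 97.7 where 0 or 1 of the 8 genes was detected, 103 where 2 were and 93.2 where 3 or 4 were. Cytokine levels in these same subsets were 10.2, 12.0 and 15.4, while the median number of UMIs per cell was 2828, 2813 and 3988.

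**Figure D3:**
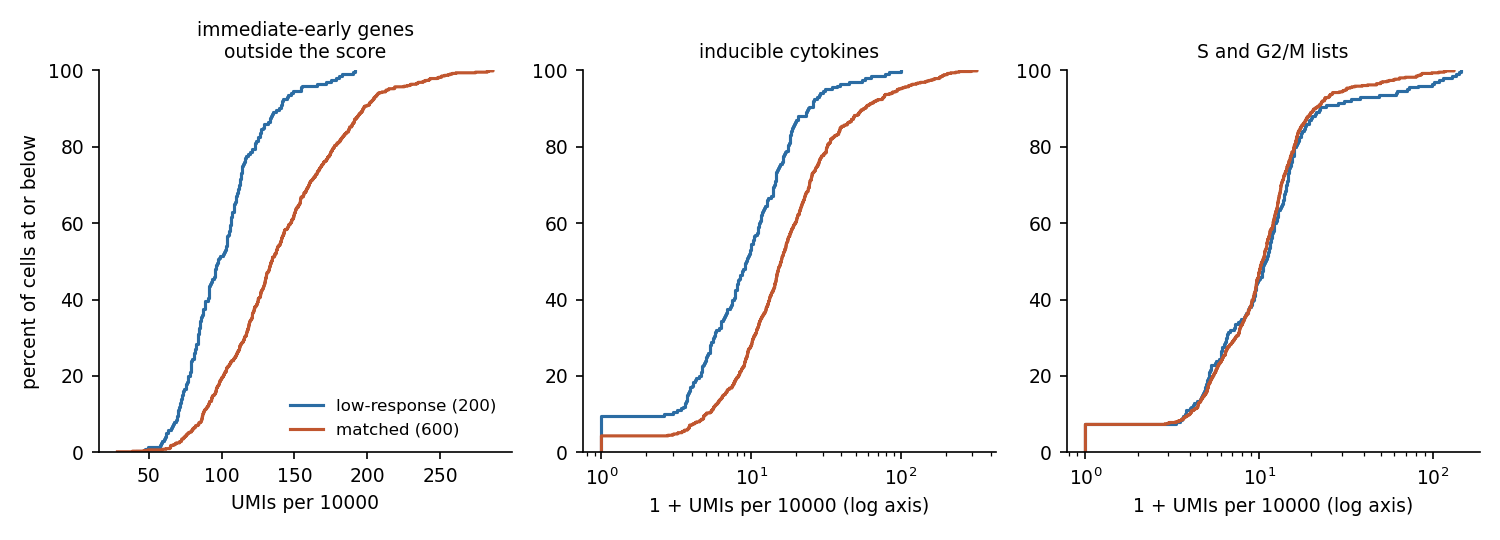
Percent of cells at or below each level, for low-response (blue) and matched cells (orange), for immediate-early genes outside the score, inducible cytokines and the S and G2/M lists together, in UMIs per 10000 (log axes with 1 added for the last panels). The blue curves lie to the left for immediate-early genes and cytokines, where 88.0% and 75.5% of low-response cells lie below the matched median, and the curves lie close together for the cell cycle lists, with medians of 9.92 and 9.44.

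Genes that act upstream were closer in level between the groups. Of 11 tested kinases and promoter-bound factors of the MAP kinase and CREB pathways, none was past 1.5-fold in either direction, and the summed ratio was 0.949 (95% interval 0.883 to 1.02). Mapk3, which encodes the kinase ERK1, stood at 2.27 and 2.12 (ratio 1.07). Of 9 tested NF-kB subunits, inhibitors and feedback genes, only Nfkbiz, an inducible nuclear member of the IkB family, was lower past 1.5-fold (ratio 0.364, 19 UMIs in the low-response cells). At equal depth Nfkbiz was detected in 6.5% of low-response cells (3.51% to 10.9%) and 8.83% of matched cells (6.69% to 11.4%). All 9 had ratios below 1, with a median log2 ratio of -0.14, and the summed ratio was 0.890. Of 14 tested heat shock genes, 2 were lower past 1.5-fold, Hspa1a (ratio 0.352) and Hspa1b (ratio 0.464), the inducible Hsp70 genes, and the constitutive Hspa8, which shares 52.2% of its end sequences with pseudogenes, had a ratio of 0.902. The summed ratio over all 19 measured heat shock genes was 0.886.

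Other stress and metabolic genes differed singly. Hmox1, the heme-degrading enzyme heme oxygenase 1, stood at 7.66 in the low-response cells and 12.0 in the matched cells (ratio 0.638, 95% interval 0.579 to 0.703). Slc7a11, the cystine transporter, had a ratio of 0.579. Yet at equal depth Slc7a11 was detected in similar shares of cells, 10% of low-response and 10.2% of matched cells (14% and 17.3% unthinned). The other 10 tested genes of the oxidative and metal stress list lay within 1.5-fold, among them the ferritin chains Ftl1 (173 and 156, ratio 1.11) and Fth1 (176 and 168, ratio 1.04). Of the sterol genes, Hmgcs1, an enzyme of the mevalonate pathway, and Insig1, which holds back sterol synthesis, had ratios of 0.971 and 0.943. Neat1, the nuclear RNA that scaffolds paraspeckles, stood at 1.90 and 3.31 (ratio 0.574, 0.470 to 0.697), and Malat1, another nuclear RNA, at 149 and 159 (ratio 0.937). Apoe, an apolipoprotein, had a ratio of 0.590 on 24 UMIs, 75% of them in 10 cells, and its ratio was above 1 with 100 or 400 cells chosen.

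**Figure D4:**
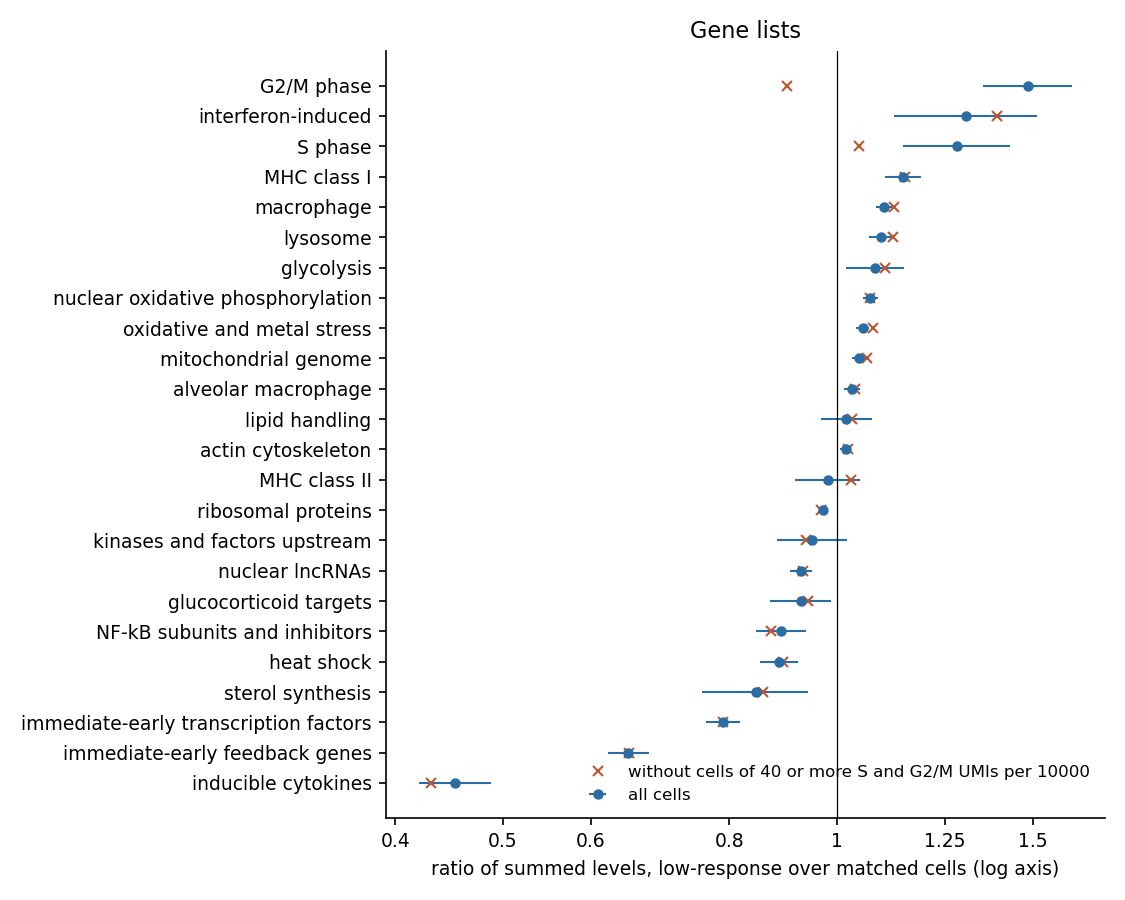
Ratio of the summed level of each gene list in low-response over matched cells (log axis), with exact 95% counting intervals (blue), and the ratio without cells of 40 or more S and G2/M UMIs per 10000 (orange crosses). Of the lists drawn, which leave out the score genes and the markers of other cell types, inducible cytokines (0.453) and immediate-early feedback genes (0.649) lie lowest and the alveolar macrophage list lies near 1. The crosses of the S and G2/M lists lie lower because those lists chose the cells left out.

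The cells carried the genes that define AMs. None of 24 tested AM genes was past 1.5-fold in either direction, their median log2 ratio was 0.03, and the summed level was 309 in the low-response cells and 299 in the matched cells (ratio 1.03). Chil3, a chitinase-like protein, stood at 143 and 136, and Ear2, an eosinophil-associated ribonuclease, at 32.6 and 32.4. A low-response cell had a median of 16 of the 24 genes detected, as did a matched cell. Of 11 tested macrophage genes shared across tissues, none was past 1.5-fold (summed ratio 1.10), with Lyz2, lysozyme, at 181 and 159.

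A single low-response cell went against the label. It held 940 UMIs of Jchain, which encodes the joining chain of antibodies and marks plasma cells, of the 945 in all low-response cells, and these were 23.8% of its 3952 UMIs. It also held 5 UMIs of Cd79a, a B cell gene, and its level of the AM genes (81.0 UMIs per 10000) was the lowest of the 200, the next being 141. By number it had 9 of the 24 AM genes detected, and the lowest of the other low-response cells had 8. The lowest AM level among the matched cells was 43.0. Without the Jchain cell the Jchain ratio was 1.14, and the counts of lower and higher genes were 104 and 22. The log2 ratio of inducible cytokines was -1.14 with and without that cell. Measured markers of other cells were scarce. The low-response cells held no UMI of Ccr2, C1qa, C1qb, Sftpb, Ager, Pecam1 or Cdh5. The matched cells, 3 for each low-response cell, held 0 to 6 UMIs of each of these genes, so the zeros say little. Other epithelial and monocyte markers were present in the low-response cells. Sftpc had 17 UMIs there and 38 in the matched cells, Ms4a7 had 12 and 31, and Scgb1a1 had 9 and 38. The monocyte and interstitial macrophage list had 14 UMIs against 55 in the matched cells (0.213 and 0.284 per 10000). The dendritic cell list had 3 against 20 (0.0457 and 0.103), and the neutrophil list 27 against 91 (0.411 and 0.470). Of these lists, 6 of 8, 3 of 6 and 2 of 4 genes were measured. Of 8 endothelial, fibroblast and red cell genes only Pecam1 and Cdh5 were measured, with 0 UMIs against 1. Of 10 T, NK and B cell genes only Cd79a, Ms4a1 and Jchain were. Fibroblasts, red cells, T cells and NK cells were thus not assessed. Epcam made up 180 of the 210 UMIs of the epithelial list, whose summed level was 3.20 against 3.74.

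Some higher genes had most of their UMIs in the few cycling cells and others did not. Stmn1, a microtubule-destabilizing protein, stood at 3.74 in the low-response cells and 1.86 in the matched cells (ratio 2.01, 95% interval 1.70 to 2.37), Hmgb2, a chromatin protein of dividing cells, at 4.40 and 2.65 (ratio 1.66), and Tubb5, a beta-tubulin, at 5.08 and 3.11 (ratio 1.64). These genes are high in cycling cells. Cells with at least 40 UMIs per 10000 on the S and G2/M lists together, a limit set after the values were seen, were 14 of 200 low-response cells (7%, exact binomial interval 3.88% to 11.5%) and 24 of 600 matched cells (4%, 2.58% to 5.89%). The 14 cells held 70.3% of the Stmn1 UMIs of the low-response cells. Without such cells the ratios were 1.04 for Stmn1 and 1.01 for Tubb5, which are on neither list. Hmgb2 is a list member and had a ratio of 0.957, which the choice of those cells lowers. With all cells at equal depth, Hmgb2 was detected in 28% of low-response cells and 30.8% of matched cells. With all cells the G2/M list stood at 10.7 and 7.17 (ratio 1.49), and the S phase list had a ratio of 1.28. As a difference of mean ln with 0.1 added, the G2/M phase genes had -0.11, the opposite direction. Pseudogenes share 25.9% of the read-length (98-base) sequences in the last 300 bases of Stmn1 transcripts, 36.0% of those of Hmgb2 and 40% of those of Cd63.

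Wfdc17, a secreted protein with a whey acidic protein domain, stood at 6.29 in the low-response cells and 3.47 in the matched cells (ratio 1.81, 95% interval 1.60 to 2.05), and the ratio was 1.89 without the cycling cells. The 10 cells with the most Wfdc17 held 44.3% of its UMIs, and at equal depth it was detected in 37.5% of low-response cells and 27% of matched cells (52.5% and 42.8% unthinned). Txnip, which inhibits thioredoxin, stood at 2.24 and 1.26 (ratio 1.78, 1.44 to 2.19) and was detected in 25% and 15.5% at equal depth (38% and 26.5% unthinned). Cd63, a tetraspanin of late endosomes and lysosomes, stood at 2.88 and 1.77 (ratio 1.63, 1.35 to 1.95). The remaining 16 higher genes were below 1 UMI per 10000. The largest ratios among them were those of 2810417H13Rik, at 2.98, with 86.1% of its UMIs in the 14 cycling cells, and S100a6, a calcium-binding protein, at 2.55, with 83.2% of its UMIs in 10 cells.

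Several lists had summed levels that were higher by less than 1.5-fold. Over all 2733 genes tested, 46.1% had ratios of 1 or more. All 5 tested MHC class I and peptide loading genes had ratios above 1, with a median log2 ratio of 0.24 against -0.02 over all genes tested, and the summed level was 59.8 and 52.1 (ratio 1.15, 95% interval 1.11 to 1.19). B2m, the light chain of MHC class I, stood at 36.3 and 30.8. Of 18 tested lysosomal genes, 12 had ratios above 1 and Cd63 alone was past 1.5-fold. The summed level of the list was 133 and 121 (ratio 1.10), with Psap, the precursor of the saposins, at 25.7 and 22.7. Nuclear respiratory chain genes had ratios above 1 in 54 of 70 and a summed ratio of 1.07, and genes of the mitochondrial genome had a summed ratio of 1.05. Mitochondrial UMIs were a median of 3.41% of a low-response cell and 3.14% of a matched cell, and 20.0% and 15.7% of cells exceeded 5%. Their part in these small differences was not tested beyond leaving out those cells. Interferon-induced genes had a summed ratio of 1.31, or 1.23 without the Jchain cell, with 3 genes tested and none past 1.5-fold. No tested gene of the glycolysis, actin or ribosomal protein lists was past 1.5-fold, and their summed ratios were 1.08, 1.02 and 0.971. Summed ratios were 0.928 for glucocorticoid-responsive genes, where Txnip alone of 7 was past 1.5-fold, 0.845 for sterol genes, 1.02 for lipid handling genes, 0.928 for nuclear long noncoding RNAs and 1.06 for oxidative and metal stress genes. The MHC class II list, with none of 6 tested genes past 1.5-fold, had a ratio of 0.981, with 351 UMIs of Cd74, the invariant chain, in a single matched cell. The log2 ratio of the MHC class II genes ranged from -0.30 with 100 cells chosen to 0.63 as a difference of mean ln with 0.1 added, and was 0.50 with 1 matched cell each, so no direction is given.

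The levels also varied along the whole range of the score. The 1809 kept cells were ranked by score and divided into 9 bands of 200 cells (209 in the last), without matching, and the median number of UMIs per cell was 3112 in the first band and 3747 in the last. From the first band to the last, immediate-early feedback genes had levels of 40.6, 45.2, 50.9, 54.2, 58.1, 64.1, 66.1, 70.1 and 82.9 UMIs per 10000. Thus the summed level of this list rose with every band and was lowest in the low-response cells. Whether the cells change gradually or fall into groups was not tested. Cytokine levels took another shape, with 12.4 and 12.7 in the first and second bands, 36.2 in the eighth and 72.4 in the last. Hmox1 stood at 7.66 and 8.04 in the lowest bands and at 10.6 to 15.9 in the others. Lysosomal genes ran the other way, at 133 in the first band and 112 in the last, as did MHC class I genes (59.8 and 49.6) and Wfdc17 (6.29 and 2.82). The G2/M list was high at both ends, with 10.7 in the first band, 6.94 in the seventh and 12.9 in the last. The AM list stayed between 292 and 309 in all 9 bands.

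**Figure D5:**
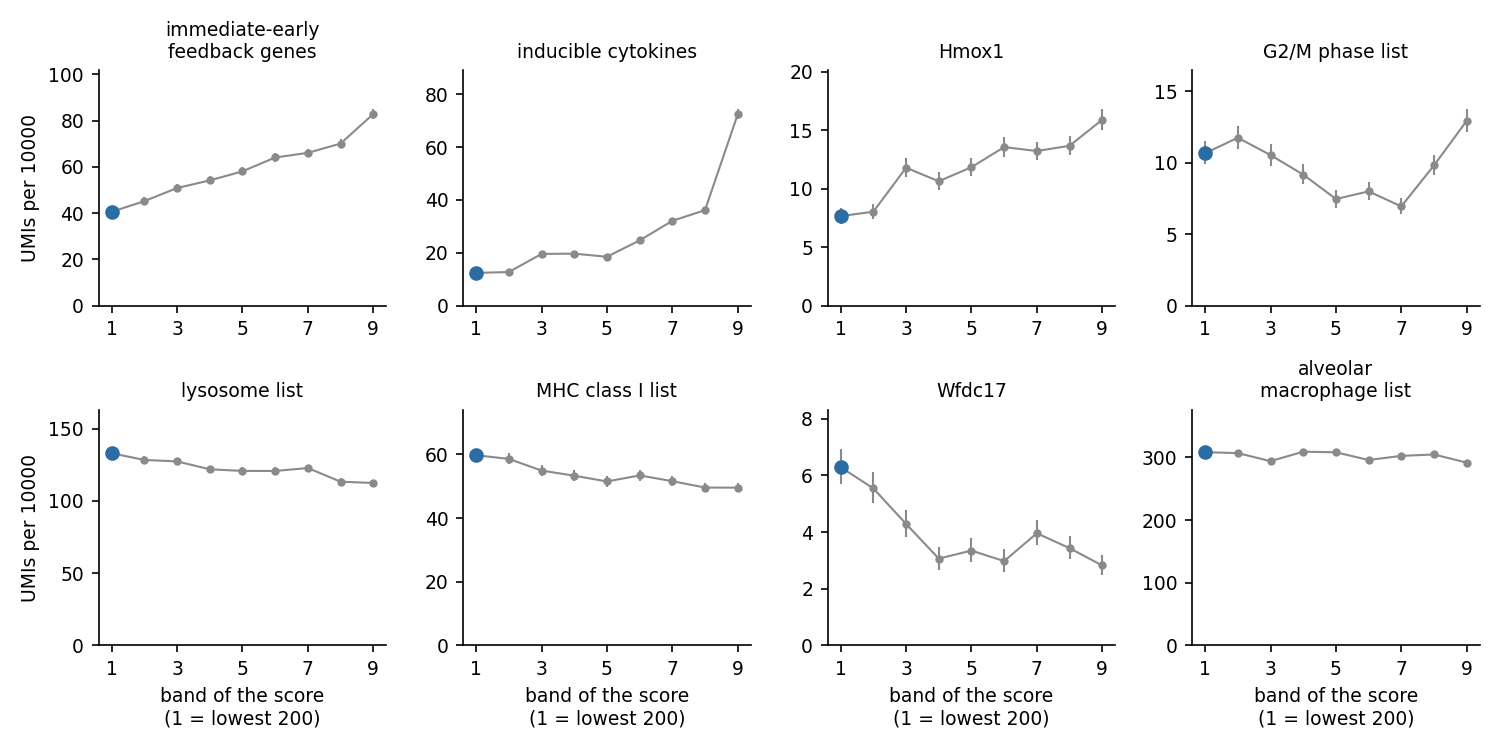
UMIs per 10000 in 9 bands of kept cells ranked by score, with exact 95% Poisson intervals, from the 200 lowest (band 1, blue) to the 209 highest, each panel with its own axis from 0. Feedback genes and cytokines are lowest in band 1 (40.6 and 12.4), lysosomal genes, MHC class I genes and Wfdc17 are highest there, and the alveolar macrophage list is flat.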

How the data were processed

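AMs from 1 WT library were analysed. The authors aligned reads to mm10 and counted UMIs with Cell Ranger, describe filters on genes per cell and mitochondrial content, and deposited natural log values (Seurat LogNormalize, ln of 1 plus UMIs per 10000). The authors also deposited scaled scores, regressed on UMIs and mitochondrial content, which served only as an alternative score. Of the 2055 deposited cells, 18.7% exceeded 5% mitochondrial UMIs. Every log value was a whole multiple of 1 UMI (100% within 0.01), which gave counts for 11918 genes and 1143 to 8603 UMIs per cell. No doublet caller was run; the authors' upper limit on genes per cell was relied on.

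Each low-response cell was matched with the 3 kept cells nearest in genes detected, without reuse. Levels are pooled UMIs per 10000. Summed levels of lists take all measured members, tested or not. Genes at 0.5 UMIs per 10000 or more were counted as lower or higher past 1.5-fold. Named genes were the 12 lowest and up to 12 highest ratios at 1 UMI per 10000 or more, and in each of 31 lists up to 6 members past 1.5-fold each way and the 2 most abundant. The Jchain cell, Ccl4, Il1b, Areg, Bhlhe40, Rgs1, Trib1, Ier5, Pim1, Il1rn, 2810417H13Rik and S100a6 were named after their values were seen. Some genes the rule takes are not reported here. The members and lists were chosen with earlier results of these data known. Counting intervals are exact at 95%. The self-test recovered known changes in simulated counts. Promoters are from RefSeq (GRCm38.p6), 3' sequence sharing from GENCODE transcripts. Python 3.11.15, numpy 2.4.6, scipy 1.17.1 and pandas 2.3.3 were used.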

Additional observations from a re-analysis of the deposited data

How the results depend on the processing

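No paired analysis was possible because there is 1 library. As reported, 106 genes were lower and 23 higher, and the log2 ratio was -0.46 for immediate-early genes outside the score and -1.14 for inducible cytokines. Both lists kept their direction under every alternative run. Immediate-early genes had -0.38 when score and levels came from separate sets of UMIs. Cytokines had -1.29 with 1 matched cell each, -1.29 without matching, -1.41 with 400 cells chosen, -1.34 with the deposited scaled scores, -0.93 as a difference of mean ln with 1 added, and -1.43 for the next 200 cells by score (ranks 201 to 400, chosen after seeing the data). The count of lower genes was 217 with 100 cells chosen, 163 with separate sets, 8 for mean ln with 1 added, 2428 with no minimum level, 20 with a minimum of 2 UMIs per 10000 and 207 with cells thinned to 1500 UMIs. The count of higher genes under those settings was 75, 84, 0, 1735, 6 and 85. It was also 75 with 1 matched cell each, 11 without matching, 11 with 400 cells chosen, 13 for mean ln with 0.1 added and 15 for the next 200 cells. The cause of these moves was not tested, apart from the changed number of genes tested under other minimum levels. Of 106 lower and 23 higher genes, 54 and 11 were also called with separate sets, and 40 and 5 in the next 200 cells. Of 36 named genes past 1.5-fold, Apoe and Hmgb2 changed sign somewhere. Apoe had log2 ratios of 0.037 with 100 cells chosen, 0.16 with 400, 0.30 in the next 200 and up to 0.29 with 1 gene left out of the score. Hmgb2 had -0.064 without cells of 40 or more S and G2/M UMIs per 10000. The 3 measured genes of the T, NK and B cell list (Cd79a, Ms4a1 and Jchain) had -0.75 without the Jchain cell. Dendritic cell markers had 1.57 with separate sets. Both values rest on few UMIs. Depth limits the rarer genes, since 3 UMIs are 0.0964% of the median low-response cell.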

Other observations

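Beyond the gene lists, 71 of the 106 lower genes belonged to none of them. The following were named after their values were seen. Nlrp3, the sensor of an inflammasome, stood at 0.868 UMIs per 10000 in the low-response cells and 1.63 in the matched cells (ratio 0.532). Tob1 and Tob2, antiproliferative proteins related to Btg2, had ratios of 0.658 and 0.615. Ccnt1, the cyclin subunit of the elongation factor P-TEFb, and Hexim1, its inhibitor, had ratios of 0.529 and 0.604. Nr3c1, the glucocorticoid receptor, stood at 0.670 and 1.05 (ratio 0.636). Thbd, thrombomodulin, had a ratio of 0.631, and Gdf15, a stress-induced cytokine of the TGF-beta family, had 0.531.

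The 246 cells under the gene minimum entered no comparison. Their 8 score genes stood at 35.8 UMIs per 10000, against 36.2 in the 1809 kept cells, while their median score was 0.886 against 1.12. Their median number of UMIs was 1528, and 43.5% of them exceeded 5% mitochondrial UMIs. When these cells were allowed into the choice, 159 of the 200 low-response cells were chosen again.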
